A study of Homo sapiens with 6 samples.

Results

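The genes described here are 54 ligands and receptors of the ephrin, semaphorin, slit and netrin systems of axon guidance, chosen by gene symbol from the 54628 symbols of the count tables. They were measured in U87, an established human glioblastoma cell line. The groups were 3 libraries of cycling U87 cells with received mitochondria (received) and 3 libraries of cycling U87 cells without them (not received). All 6 libraries came from cells sorted out of a co-culture by flow cytometry, and the series title speaks of mitochondria passed on by astrocytes. The labels give neither the marker used for the gate, nor how the cycling state was set, nor whether each replicate was a culture of its own. The p-values then cover only how these libraries vary, which may be technical. A single line stands for glioblastoma here.

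Axon guidance ligands steer growing nerve fibres by attraction or repulsion, and the same molecules set cell spacing, migration and vessel growth in other tissues. Ephrins are cell-bound ligands of the Eph receptor tyrosine kinases, with a lipid anchor in the A class and a membrane-spanning tail in the B class. Semaphorins act on plexins, and the secreted class 3 semaphorins mostly do so through the co-receptors neuropilin 1 and 2 (NRP1 and NRP2). Slits bind ROBO receptors, and netrins bind DCC, neogenin (NEO1) and the UNC5 receptors. Glioma cells express many of these genes, and Eph receptors and class 3 semaphorins have been studied in glioma invasion.

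Total counts ran from 17879552 to 21314558 in the received libraries and from 18549585 to 46392491 in the not-received libraries. The members took 0.158% to 0.163% of the counts in received libraries and 0.152% to 0.172% in not-received libraries. Replicates differed by more than sampling noise, with a chi-square per gene of at least 3.23 in every pair. Not-received replicate 2 stood apart, as the deepest library and by a chi-square per gene of 18.5 and 16.9 against the others of its group. Levels are CPM (read counts scaled to a common library total) adjusted by TMM composition factors, and a call is an adjusted p under 0.05 in edgeR's quasi-likelihood test over all 14100 genes tested.

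In received cells 3 guidance genes rose and 9 fell. Those that rose were the semaphorins SEMA3A, SEMA3C and SEMA4B. Those that fell were the plexins PLXNA2, PLXNA3, PLXNB2 and PLXND1, the receptors EPHA2 and NEO1, and the ligands SEMA3B, SLIT3 and NTN4. Of the 54 members 39 had enough counts to be tested, so the calls amount to 30.8% of tested members, where 18.9% of all tested genes were called. The members were chosen with earlier results of these data known, so such shares only describe the list. The 3 higher members are 7.69% of those tested, against 9.21% of all genes, and the 9 lower members are 23.1%, against 9.67% of all genes. The median log2 fold change, received over not received, was -0.07 over the tested members and -0.0012 over all genes. In 20 tested members (51.3%) the CPM ranges of the groups did not overlap, where 39.0% of all tested genes had no overlap. Without not-received replicate 2 the same 12 members were called, with EFNB2 and SEMA5A in addition. Without a received library 9 or 10 of the 12 remained, while the share of all genes called dropped to between 8.89% and 9.64%. Scaling by library size alone turned the split of all calls to 1683 higher and 1110 lower genes, in place of 1298 and 1364, and gave 4 higher and 9 lower members. In bulk RNA, fewer expressing cells and less RNA per cell cannot be told apart.

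**Figure D1:**
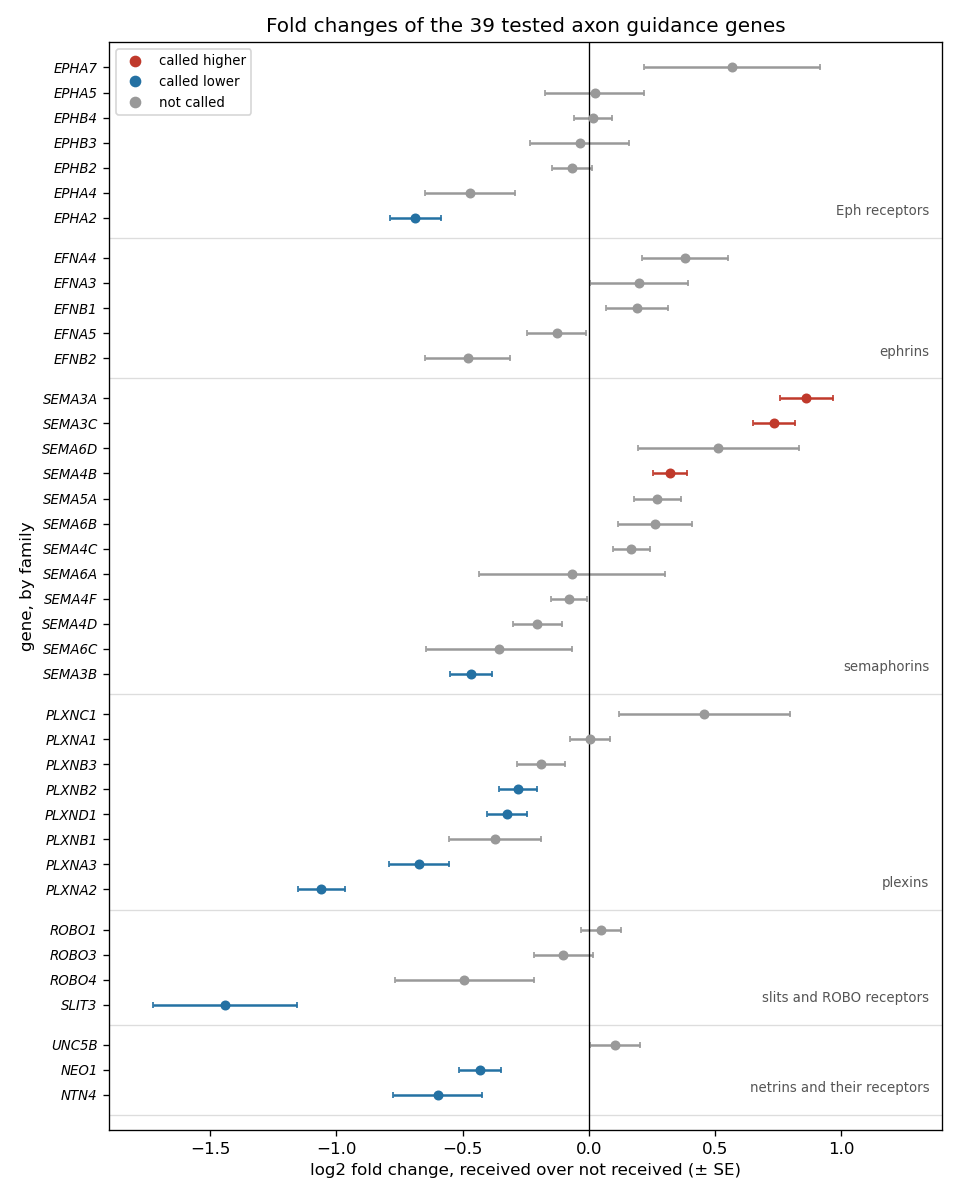
Log2 fold changes of the 39 tested members, received over not received, with bars of 1 SE (n = 3 libraries per group), grouped by family. The 3 called increases are all semaphorins, and 4 of the 9 called decreases are plexins.

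To set the sequence before the gene beside the change, the 250 bases upstream of the annotated start are given for SEMA3C, the gene with the largest called increase that has an entry in the promoter table, and for SLIT3 and PLXNA2, which had the largest called decreases. The sequences are RefSeq's, build GRCh38.p14, from minus-strand genes and written 5′ to 3′. They lie at chr7:80919052-80919301 (SEMA3C), chr5:169301140-169301389 (SLIT3) and chr1:208244385-208244634 (PLXNA2). Capitals mark matches to the SP1 motif GGGCGG on either strand.
SEMA3C: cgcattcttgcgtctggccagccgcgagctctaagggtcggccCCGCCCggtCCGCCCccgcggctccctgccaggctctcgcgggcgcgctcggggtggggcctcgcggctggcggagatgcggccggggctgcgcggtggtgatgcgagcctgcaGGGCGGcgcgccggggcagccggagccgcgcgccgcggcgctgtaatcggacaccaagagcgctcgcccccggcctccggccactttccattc
SLIT3: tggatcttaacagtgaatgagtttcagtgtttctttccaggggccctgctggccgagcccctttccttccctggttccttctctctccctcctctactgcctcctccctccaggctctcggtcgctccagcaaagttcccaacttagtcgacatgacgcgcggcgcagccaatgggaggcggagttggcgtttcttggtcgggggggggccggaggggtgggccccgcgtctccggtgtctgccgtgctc
PLXNA2: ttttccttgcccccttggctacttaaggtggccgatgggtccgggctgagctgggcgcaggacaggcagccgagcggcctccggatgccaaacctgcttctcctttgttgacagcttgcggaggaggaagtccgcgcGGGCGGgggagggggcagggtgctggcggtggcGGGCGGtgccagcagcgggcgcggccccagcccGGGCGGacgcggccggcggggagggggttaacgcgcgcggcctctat
The windows of SEMA3C and PLXNA2 held 3 SP1 matches each, and that of SLIT3 held none. Of 35114 such windows in the table, 42.6% hold at least 1. The TATA box TATAAA, the AP-1 motif TGANTCA, the E-box CACGTG and the NF-kB consensus matched on neither strand of these windows, and they match in 10.7%, 6.57%, 6.35% and 5.21% of all windows. No matches overlapped. Another listed start of SEMA3C had none of these motifs in its window and is not shown. Bases just after the start were found in a GENCODE v29 transcript of the gene for the SEMA3C and SLIT3 windows shown, but not for PLXNA2. Which start U87 cells use was not measured, and a match is a description of the letters, not of binding.

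Among the semaphorins the secreted ligands SEMA3A and SEMA3C rose most. SEMA3A, a growth cone repellent that signals through NRP1 and class A plexins, stood at 45.3, 45.8 and 39.9 CPM in received cells, against 19.8, 27.0 and 24.6 CPM in not-received cells. Every received library was above every not-received library, and the gene rose 1.82-fold (log2 fold change 0.86 ± 0.11 SE, edgeR adjusted p = 0.000165). SEMA3C, which signals through both neuropilins and plexin D1, stood at 206, 214 and 192 CPM in received cells, against 107, 137 and 123 CPM in not-received cells. The groups were again apart, and SEMA3C rose 1.66-fold (0.73 ± 0.08, edgeR adjusted p = 0.000122). SEMA4B, a membrane-bound class 4 semaphorin, had 300, 292 and 276 CPM in received cells, against 209, 239 and 245 CPM in not-received cells. That is a smaller difference, 1.25-fold, also without overlap (0.32 ± 0.07, edgeR adjusted p = 0.00465).

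SEMA3B, another class 3 ligand and a candidate tumour suppressor in lung cancer, went the other way. It had 22.9, 21.0 and 21.7 CPM in received cells, against 31.5, 31.5 and 27.6 CPM in not-received cells. The groups were apart, with levels 1.38-fold lower in received cells (-0.47 ± 0.08, edgeR adjusted p = 0.00174). The other 8 tested semaphorins were not called. Closest was SEMA5A, which carries thrombospondin repeats and binds plexin B3, with 37.4, 36.6 and 33.7 CPM in received cells, against 25.5, 31.4 and 32.0 CPM in not-received cells. Its groups did not overlap, but edgeR's adjusted p was 0.0539 (0.27 ± 0.09), and over 13 alternative fits the adjusted p ran from 0.013 to 0.172 and passed in 6, among them the edgeR fits without not-received replicate 2 or 3.

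SEMA4C, a ligand of plexin B2, averaged 37.5 ± 0.288 CPM in received cells, against 33.4 ± 1.63 CPM in not-received cells (SD, n = 3 each), without overlap and without a call (0.17 ± 0.07, edgeR adjusted p = 0.121). SEMA4D, the ligand of plexin B1, averaged 13.4 ± 0.700 CPM in received cells, against 15.4 ± 0.459 CPM in not-received cells (SD, n = 3 each). SEMA6B averaged 5.89 ± 0.228 CPM in received cells, against 4.91 ± 0.0630 CPM in not-received cells. Neither was called, although their groups did not overlap. SEMA4F averaged 51.1 ± 2.74 CPM in received cells, against 53.9 ± 2.66 CPM in not-received cells, with overlap. The transmembrane class 6 semaphorins SEMA6A, SEMA6C and SEMA6D stayed between 0.465 and 1.63 CPM in every library and overlapped between groups. Summed over the family, semaphorins made up 720, 721 and 676 CPM in received cells, against 503, 575 and 564 CPM in not-received cells, most of it from SEMA4B and SEMA3C.

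**Figure D2:**
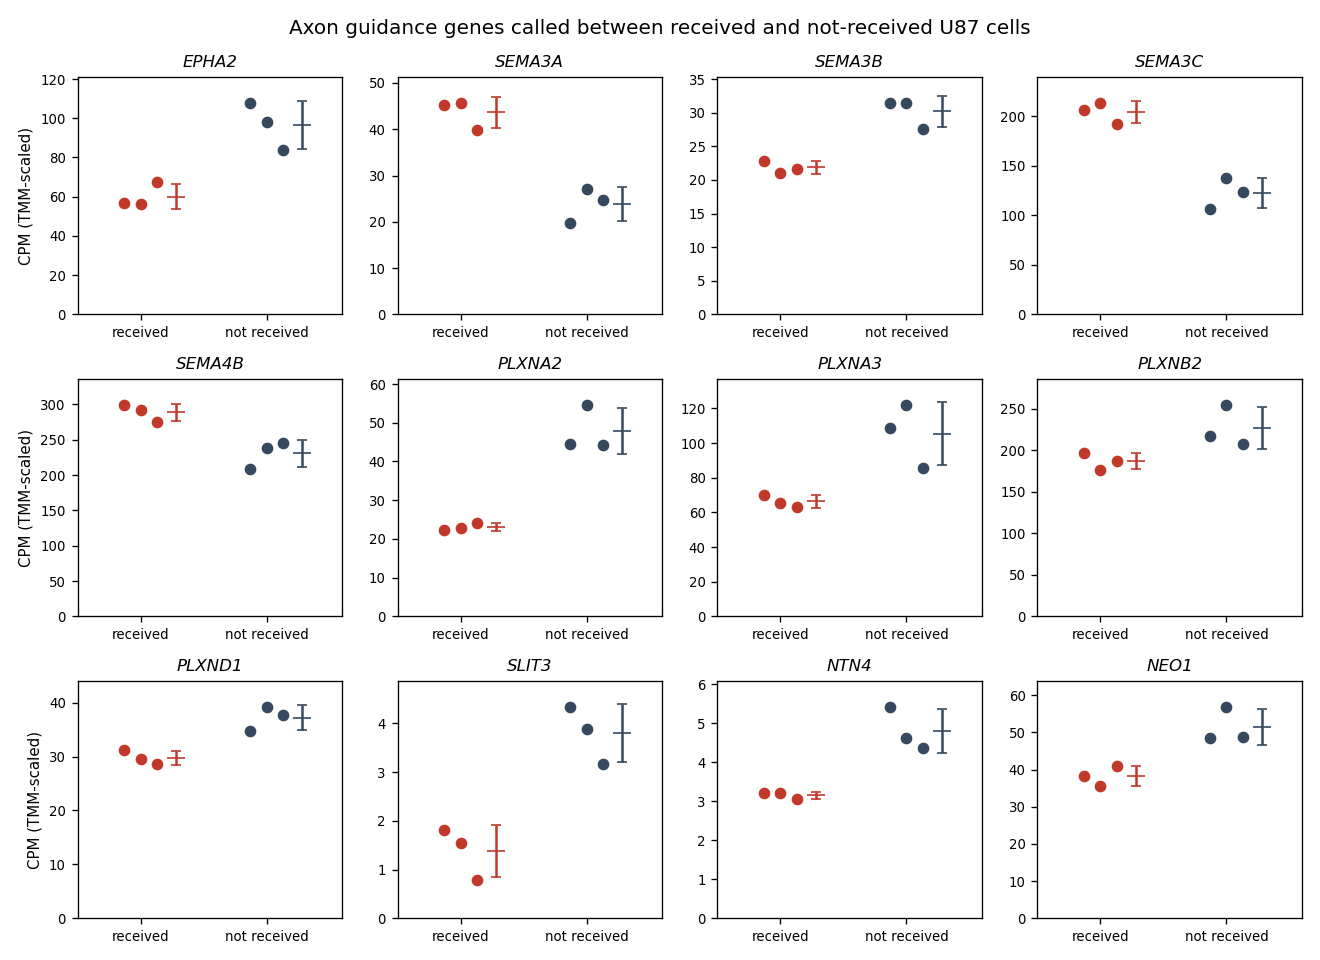
Level of the 12 called members in each library, in TMM-scaled CPM on axes from 0, with received libraries left of not-received libraries. Dots are libraries and the lines beside them the mean ± SD (n = 3), and in every panel the groups do not overlap.

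All 8 plexins among the members, which are semaphorin receptors, were tested, and in edgeR's test 4 fell and 4 were not called. PLXNA4, a plexin outside the member list, averaged 5.34 CPM in received cells, against 6.00 CPM in not-received cells, with overlap. It was tested and not called (-0.18 ± 0.17, edgeR adjusted p = 0.495). PLXNA2, a class A plexin that also receives class 6 semaphorins, stood at 22.3, 22.9 and 24.1 CPM in received cells, against 44.5, 54.7 and 44.3 CPM in not-received cells. The groups were far apart, and it was 2.09-fold lower in received cells (-1.06 ± 0.09, edgeR adjusted p = 7.71e-06). PLXNA3, which in mice pairs with NRP2, had 70.3, 65.5 and 63.2 CPM in received cells, against 109, 122 and 85.8 CPM in not-received cells. The not-received libraries were widely spread but all lay above the received ones (-0.67 ± 0.12, edgeR adjusted p = 0.0066).

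PLXNB2 and PLXND1 fell less. PLXNB2, the receptor of SEMA4C, had 197, 177 and 187 CPM in received cells, against 217, 255 and 208 CPM in not-received cells (-0.28 ± 0.08, edgeR adjusted p = 0.0218). The call was lost without received replicate 1, 2 or 3, at edgeR adjusted p = 0.0528, 0.122 and 0.0896, and over all 13 alternatives the adjusted p ran from 0.000709 to 0.122. PLXND1, a receptor of SEMA3E known for vessel patterning in mice, had 31.2, 29.5 and 28.6 CPM in received cells, against 34.7, 39.3 and 37.7 CPM in not-received cells (-0.32 ± 0.08, edgeR adjusted p = 0.0113). Its call was lost without received replicate 2 or 3, at edgeR adjusted p = 0.0594 and 0.0673, in a range from 0.00188 to 0.0673. In both genes the groups did not overlap, though the gap between the nearest libraries was small.

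Of the plexins that were not called, PLXNA1 was level, at 85.9 ± 4.29 CPM in received cells, against 85.3 ± 9.29 CPM in not-received cells (SD, n = 3 each). PLXNB3, the receptor of SEMA5A, averaged 46.5 ± 3.14 CPM in received cells, against 52.9 ± 6.94 CPM in not-received cells, with overlap. It passed in 1 of 13 alternatives, the edgeR fit without not-received replicate 3 (adjusted p = 0.0344, range 0.0344 to 0.454). PLXNB1, the receptor of SEMA4D, averaged 3.44 ± 0.392 CPM in received cells, against 4.47 ± 0.469 CPM in not-received cells, without overlap. PLXNC1, the receptor of SEMA7A, averaged 1.31 ± 0.397 CPM in received cells, against 0.936 ± 0.308 CPM in not-received cells, with overlap.

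The neuropilins are not members, and 1 of the 2 was called. NRP2 had 464, 491 and 441 CPM in received cells, against 268, 351 and 309 CPM in not-received cells, and rose (log2 fold change 0.59 ± 0.09, edgeR adjusted p = 0.0014). NRP1 had 322, 323 and 333 CPM in received cells, against 276, 310 and 294 CPM in not-received cells. Its groups did not overlap either, but it was not called (0.15 ± 0.06, edgeR adjusted p = 0.0825), and over 13 alternatives the adjusted p ran from 0.00997 to 0.223. L1CAM, an adhesion molecule that binds NRP1 in SEMA3A signalling, had 9.58, 8.64 and 9.34 CPM in received cells, against 14.0, 15.5 and 14.6 CPM in not-received cells, and fell (-0.68 ± 0.10, edgeR adjusted p = 0.000663).

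Of the 7 tested Eph receptors EPHA2 was the one called. EPHA2, a receptor tyrosine kinase that is abundant in many glioblastomas, had 56.7, 56.1 and 67.4 CPM in received cells, against 108, 98.1 and 83.8 CPM in not-received cells. All received libraries were below all not-received libraries, and the level in received cells was 1.61-fold lower (-0.69 ± 0.10, edgeR adjusted p = 0.00105). EPHA4, which binds both A and B ephrins, had 4.93, 5.79 and 3.72 CPM in received cells, against 7.17, 7.00 and 5.85 CPM in not-received cells. The groups lay close without overlap, and EPHA4 was not called (-0.47 ± 0.18, edgeR adjusted p = 0.0797).

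The remaining Eph receptors overlapped between groups. EPHB2 averaged 56.3 ± 5.61 CPM in received cells, against 58.8 ± 2.32 CPM in not-received cells (SD, n = 3 each), a log2 fold change of -0.07 ± 0.08 SE. EPHB4, the receptor of ephrin-B2, averaged 41.2 ± 2.73 CPM in received cells, against 40.6 ± 1.69 CPM in not-received cells, a log2 fold change of 0.02 ± 0.08 SE. EPHA5 and EPHB3 averaged 3.61 ± 0.635 and 3.07 ± 0.271 CPM in received cells, against 3.53 ± 0.283 and 3.13 ± 0.256 CPM in not-received cells. EPHA7 averaged 1.49 ± 0.690 CPM in received cells, where replicate 3 was the highest at 2.28 CPM, and 0.983 ± 0.231 CPM in not-received cells.

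None of the 5 tested ephrins was called by edgeR. EFNB2, the ligand of EPHB4 and a marker of arterial endothelium, had 44.0, 44.5 and 45.7 CPM in received cells, against 51.6, 79.5 and 54.5 CPM in not-received cells. The received libraries were tightly grouped below all not-received libraries, of which replicate 2 was far the highest (-0.48 ± 0.17, edgeR adjusted p = 0.101). EFNB2 passed in 6 of 13 alternatives, with an adjusted p from 4.85e-05 to 0.243, and without not-received replicate 2 its log2 fold change was -0.25 (edgeR adjusted p = 0.0142). EFNA5 averaged 16.6 ± 1.67 CPM in received cells, against 18.3 ± 2.56 CPM in not-received cells, and EFNB1 averaged 9.65 ± 0.618 CPM in received cells, against 8.49 ± 0.793 CPM in not-received cells, both with overlap. EFNA4 averaged 5.46 ± 0.730 CPM in received cells, against 4.19 ± 0.440 CPM in not-received cells, and EFNA3 averaged 4.24 ± 0.691 CPM in received cells, against 3.67 ± 0.566 CPM in not-received cells, again with overlap. EFNA1, a ligand of EPHA2, had at most 4 counts in any library and was not tested.

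In the slit and ROBO family the ligand SLIT3 fell and its receptors were not called. SLIT3 was a low gene, with 39, 29 and 14 counts in received cells, against 80, 176 and 66 counts in not-received cells. In CPM that is 1.81, 1.56 and 0.778 in received cells, against 4.35, 3.88 and 3.16 in not-received cells. The groups were apart, and the level was 2.72-fold lower in received cells (-1.44 ± 0.28, edgeR adjusted p = 0.0035). ROBO1, the main receptor measured, averaged 101 ± 3.32 CPM in received cells, against 97.3 ± 11.8 CPM in not-received cells (SD, n = 3 each), with overlap (0.05 ± 0.08, edgeR adjusted p = 0.713). ROBO3 averaged 15.5 ± 1.78 CPM in received cells, against 16.6 ± 2.04 CPM in not-received cells, also with overlap. ROBO4, known from endothelium, averaged 1.30 ± 0.0903 CPM in received cells, against 1.85 ± 0.472 CPM in not-received cells, without overlap and without a call. SRGAP3, a Slit-Robo GTPase-activating protein, is not a member and was picked after its values were seen. It had 2.37, 2.74 and 2.11 CPM in received cells, against 0.652, 0.705 and 1.25 CPM in not-received cells, and rose 2.80-fold (1.49 ± 0.30, edgeR adjusted p = 0.00413). Of its relatives SRGAP1 averaged 44.7 ± 1.00 CPM in received cells, against 38.4 ± 2.82 CPM in not-received cells, and SRGAP2 averaged 80.2 ± 2.43 CPM in received cells, against 81.1 ± 2.58 CPM in not-received cells (SD, n = 3 each). Neither was called (edgeR adjusted p = 0.0578 and 0.867).

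Of the netrin family NEO1 and NTN4 fell. NEO1, a receptor of netrins and of the repulsive guidance molecules, had 38.3, 35.7 and 40.9 CPM in received cells, against 48.5, 56.9 and 48.7 CPM in not-received cells. Its groups did not overlap (-0.43 ± 0.08, edgeR adjusted p = 0.00338). NTN4, a netrin that binds laminin in basement membranes, had 3.21, 3.22 and 3.06 CPM in received cells, against 5.43, 4.62 and 4.36 CPM in not-received cells. Those groups were apart (-0.60 ± 0.18, edgeR adjusted p = 0.031), but the NTN4 call was lost in 5 of 13 alternatives. These were DESeq2 (adjusted p = 0.0789) and the edgeR fits without received replicate 1, 2 or 3 (adjusted p = 0.0937, 0.0955 and 0.107) or without not-received replicate 1 (adjusted p = 0.0916), and the whole range was 0.0282 to 0.107. UNC5B, a repulsive netrin receptor, averaged 23.0 ± 2.89 CPM in received cells, against 21.4 ± 1.27 CPM in not-received cells, with overlap. RGMB, a ligand of neogenin and a co-receptor of bone morphogenetic proteins, is not a member. It had 165, 185 and 176 CPM in received cells, against 102, 113 and 116 CPM in not-received cells, and rose 1.58-fold (0.66 ± 0.07, edgeR adjusted p = 2.32e-05).

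The other 15 members had too few counts to be tested. EPHA1, EPHA3, SEMA7A, ROBO2 and DCC, the attractive netrin receptor, had 0 counts in all 6 libraries, and 3 counts, the limit that a count of 0 allows, are 0.0661 CPM at the greatest depth and 0.167 CPM at the lowest. ID3, a gene outside these families, was also at 0 in every library. A 0 here may therefore come partly from the annotation or counting, and in that case the CPM limit does not hold. EPHB1, EPHB6, EFNA1, EFNB3, SEMA3D, SEMA3F, SLIT1, SLIT2, NTN1 and UNC5C had 0 to 7 counts per library. SEMA3D, a class 3 ligand, had 5, 6 and 5 counts in received cells, against 1, 7 and 1 counts in not-received cells. Scaled for depth, that is 0.233, 0.322 and 0.278 CPM in received cells, against 0.0543, 0.154 and 0.0479 CPM in not-received cells, without overlap. EFNA1 had 0.140, 0.215 and 0.0556 CPM in received cells, against 0, 0.0440 and 0.0479 CPM in not-received cells, also without overlap in CPM. Its counts did overlap, at 3, 4 and 1 in received cells, against 0, 2 and 1 in not-received cells. The other 8 of these genes overlapped between groups. SLIT2 and NTN1, ligands of the ROBO and netrin receptors, had 2 or fewer and 5 or fewer counts in any library. With no low-count filter these 10 genes entered edgeR's test and none was called.

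Downstream and partner genes were counted over 69 genes outside the families, of which 62 were tested. Of these 7 rose and 12 fell by edgeR, which is 30.6% called, beside the 18.9% of all tested genes. The lists were chosen with earlier results of these data known, and SRGAP3, picked after its values were seen, is among the 7. Their shares therefore describe the lists and are no test of them against all genes. The median log2 fold change was -0.09, with 45 of 62 negative, beside a median of -0.0012 over all genes. Without received replicate 1 the counts were 4 higher and 7 lower, without received replicate 2 they were 3 and 5, and without received replicate 3 they were 6 and 5. In these fits 9.36%, 8.89% and 9.64% of all tested genes were called. Of 20 co-receptors and other partners 17 were tested. In edgeR's test 3 rose (NRP2, RGMB and ADAM17) and 3 fell (L1CAM, SDC3 and GPC1). Either direction is 17.6% of those tested, where 9.21% of all genes were higher and 9.67% lower. SDC3, a heparan sulphate proteoglycan, had 51.2, 49.4 and 50.2 CPM in received cells, against 79.1, 83.6 and 72.0 CPM in not-received cells (-0.64 ± 0.07, edgeR adjusted p = 5.07e-05).

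Of 49 intracellular effectors 45 were tested, and in edgeR's test 4 rose and 9 fell. The 4 are 8.89% of those tested, against 9.21% of all genes, and the 9 are 20%, against 9.67% of all genes. Those that rose were SRGAP3, NCK1 (0.33 ± 0.09), YES1 (0.28 ± 0.07) and DPYSL3 (0.21 ± 0.06). Over 13 alternatives the call was kept in 13 for SRGAP3, 10 for NCK1, 12 for YES1 and 9 for DPYSL3. MICAL3, of a family of enzymes that oxidise actin and act downstream of plexins in flies, had 121, 123 and 117 CPM in received cells, against 170, 196 and 145 CPM in not-received cells (-0.51 ± 0.09, edgeR adjusted p = 0.00464). MICAL3 fell without overlap between the groups. DPYSL4, of the collapsin response mediator family, had 9.21, 7.56 and 7.23 CPM in received cells, against 11.1, 12.0 and 11.4 CPM in not-received cells (-0.52 ± 0.12, edgeR adjusted p = 0.00973). Its call was lost without received replicate 2 or 3 (edgeR adjusted p = 0.0607 and 0.0625, range from 0.00217 to 0.0625). Of the same family DPYSL2 also fell (-0.28 ± 0.08, edgeR adjusted p = 0.0349), DPYSL3 rose (edgeR adjusted p = 0.0267) and CRMP1 was not called (0.15 ± 0.20). The DPYSL2 groups overlapped, and the DPYSL2 call was kept in only 7 of 13 alternatives (range from 0.000898 to 0.169). LIMK2, a kinase of cofilin, had 14.2, 14.5 and 13.3 CPM in received cells, against 19.6, 18.1 and 16.2 CPM in not-received cells (-0.36 ± 0.10, edgeR adjusted p = 0.0243). Its call was lost in 5 of 13 alternatives (range from 0.0119 to 0.109), namely DESeq2 and the edgeR fits without received replicate 1, 2 or 3 or not-received replicate 1. Of 16 further family genes outside the 54 members, 4 were tested and none was called.

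**Figure D3:**
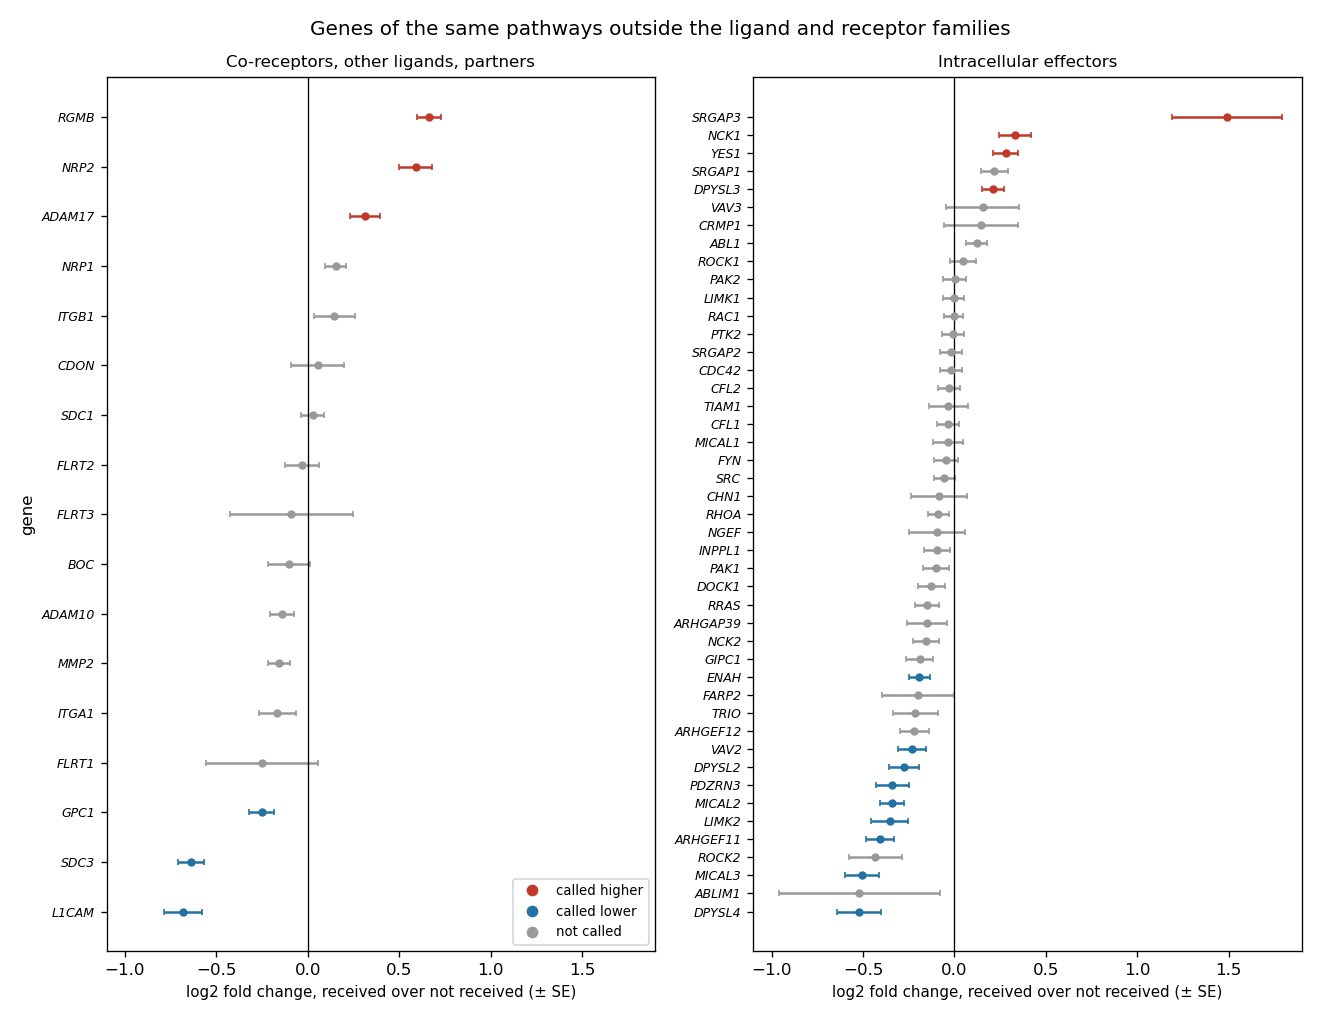
Log2 fold changes, received over not received, of the tested partner genes with bars of 1 SE (n = 3 libraries per group). Of 62 genes 7 were called higher, among them NRP2 and RGMB, and 12 lower, among them L1CAM and SDC3.

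Levels between genes can be set side by side only per length, here as CPM per kilobase of exon. In received cells SEMA4B was the highest member at 73.6 CPM per kilobase, followed by SEMA3C at 38.7, PLXNB2 at 29.2, EPHA2 at 15.1 and ROBO1 at 12.9 CPM per kilobase. No 2 neighbours in this order overlapped over the 3 libraries. In not-received cells SEMA4B was again the highest, at 58.8 CPM per kilobase, and PLXNB2 came next at 35.5 CPM per kilobase. EPHA2 at 24.4 and SEMA3C at 23.2 CPM per kilobase overlapped there, as did ROBO1 and EFNB2, both at 12.4 CPM per kilobase. SLIT3 was near the bottom of the tested genes, at 0.142 CPM per kilobase in received cells and 0.390 CPM per kilobase in not-received cells.

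**Figure D4:**
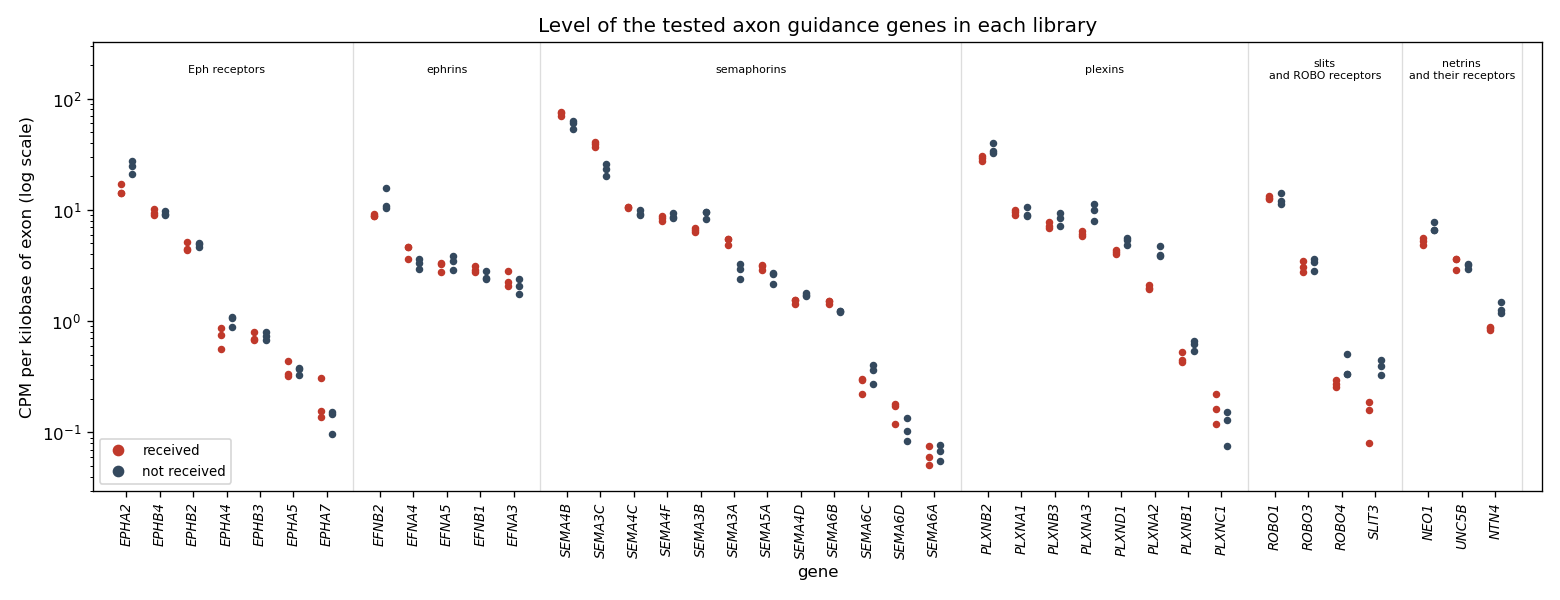
Level of the 39 tested members in each library, in CPM per kilobase of exon on a log axis, with genes along the other axis grouped by family and received libraries left of not-received libraries. Each dot is a library (n = 3 per group), and SEMA4B leads in both groups at 73.6 CPM per kilobase in received and 58.8 CPM per kilobase in not-received cells.

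Because the cells were sorted from a co-culture, markers of other cell types are given beside these results. Astrocyte markers summed to 84.3 to 97.6 CPM in received cells and 98.5 to 109 CPM in not-received cells, with 3 of 10 tested and none called by edgeR. Nearly all of it was ALDOC, SLC1A3 and SLC4A4, the 3 tested. ALDOC averaged 62.0 CPM in received cells, against 71.8 CPM in not-received cells, without overlap (-0.21 ± 0.08, edgeR adjusted p = 0.0637). SLC1A3 (-0.20 ± 0.10) and SLC4A4 (-0.10 ± 0.10) overlapped between groups. AQP4, ALDH1L1 and GJB6 were at 0 in every library, and GFAP was at 0.215 to 0.445 CPM in received cells and 0.286 to 0.598 CPM in not-received cells. Endothelial markers bear on EFNB2 and ROBO4. Their sum was 15.7 to 19.3 CPM over the received libraries, against 15.3 to 19.8 CPM over the not-received libraries. Most of it was TEK, with a mean of 13.8 CPM for the received group, against 13.3 CPM for the other. TEK (0.04 ± 0.11), PECAM1 (0.29 ± 0.32) and ERG (-0.30 ± 0.27), the 3 tested, overlapped between groups and were not called by edgeR. VWF, TIE1, CLDN5 and CDH5 were not tested. CDH5 had 0 counts in every received library, against 0 to 2 per not-received library. Neuron markers summed to 183 to 194 CPM in received cells and 247 to 297 CPM in not-received cells, nearly all of it TUBB3. By edgeR TUBB3 (-0.52 ± 0.07) and SNAP25 (-0.49 ± 0.12) were lower. SYT1 (0.63 ± 0.35) and SYP (-0.15 ± 0.40) were not called, RBFOX3 and STMN2 were not tested, and ELAVL4 was at 0 throughout. Leukocyte markers summed to 472 to 488 CPM in received cells and 349 to 390 CPM in not-received cells, nearly all of it CD68. CD68, the 1 leukocyte marker tested, rose without overlap (0.36 ± 0.06, edgeR adjusted p = 0.000883). PTPRC had 0 to 2 counts and CD14 2 to 10 counts per library, while CD3E, AIF1 and TYROBP were at 0. Of the U87 markers NES and VIM rose by edgeR, with log2 fold changes of 0.46 ± 0.09 and 0.26 ± 0.07. CHI3L1 (-0.90 ± 0.10) and CD44 (-0.23 ± 0.05) fell, and FN1 (-0.36 ± 0.16) and TNC (0.19 ± 0.08) were not called. As with the members, a marker at 0 may come partly from the annotation or counting. The part of the neuron, leukocyte and U87 marker differences in the guidance gene results was not tested.

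Some members overlap other genes, and no source used here says whether counting used the strand. EPHB4 overlaps SLC12A9, SEMA4D overlaps SECISBP2, PLXNC1 overlaps CEP83 and PLXNA3 overlaps LAGE3. SECISBP2 had 44.8, 45 and 44.9 CPM in received cells, against 41.3, 43.5 and 37.3 CPM in not-received cells. CEP83 had 12.4, 12.7 and 13 CPM in received cells, against 12.1, 12.6 and 10.6 CPM in not-received cells. In every library SECISBP2 was above SEMA4D and CEP83 was above PLXNC1. LAGE3 had 34.5, 29.6 and 34.6 CPM in received cells, against 34.0, 23.9 and 33.1 CPM in not-received cells, with overlap between groups. The part of reads from overlapping genes in the counts of the members was not tested. LOC105372884, a long non-coding RNA that overlaps PLXNA2, had 0.186, 0.215 and 0.334 CPM in received cells, against 0.76, 0.639 and 0.671 CPM in not-received cells. It fell with PLXNA2 (-1.48 ± 0.42, edgeR adjusted p = 0.0266). The antisense genes of EPHA2 and SEMA3B stayed below 1 CPM in every library. Reads from overlapping genes cannot be told apart without strand.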

How the data were processed

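RNA of sorted U87 cells was captured by poly-A, copied with random hexamers and read as 150 bp paired-end reads, per the labels' protocols. The authors deposited raw read counts per gene symbol, 1 file per library. DESeq and R 3.6.1 are named in the submitters' processing notes; no source used here names the aligner, counter, genome build or annotation.

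Total counts were 17879552 to 46392491 per library, and 28833 of 54628 genes had a count. The genes kept by filterByExpr (14100) were tested in R 4.3.3 with edgeR 4.0.16 (TMM factors, robust quasi-likelihood fit, group as the only term), with Benjamini-Hochberg adjustment over all of them and a threshold of 0.05. Standard errors were taken as the size of the log2 fold change over the square root of F. Alternatives were RLE factors, library size alone, DESeq2 1.42.0, limma-voom (limma 3.58.1), no filter, at least 1 CPM in 3 libraries, a replicate block and leaving out each library. The procedure was checked on simulated data.

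Members and lists were chosen with earlier results of these data known. Named were all called members, the 2 highest uncalled members per family, and up to 4 called partners per list with at least 2 CPM on average, plus NRP1 and NRP2; 1 effector that the rule names and 1 marker are not reported here, and further members are given for completeness. Exon lengths are unions of GENCODE v29 basic exons matched by symbol. Promoters were found for 48 of 54 members in the RefSeq table. A count of 0 was given an upper limit of 3 counts, which covers counting error only. With 3 libraries against 3 an exact permutation test could not go below p = 0.1 and was not used.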

Additional observations from a re-analysis of the deposited data

How the results depend on the processing

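Over the 7 alternatives that kept all libraries, 3 or 4 members were called higher and 9 or 10 lower, and 7 to 9 partners higher and 9 to 15 lower. Leaving out 1 library gave 3 to 4 higher and 6 to 10 lower members, and 3 to 10 higher and 5 to 12 lower partners. The share of all tested genes called was 18.9% with all libraries. It was 9.36%, 8.89% and 9.64% when received replicate 1, 2 or 3 was left out. It was 15.9%, 20.5% and 18.3% when not-received replicate 1, 2 or 3 was left out. EPHA2, SEMA3A, SEMA3B, SEMA3C, SEMA4B, PLXNA2, PLXNA3, SLIT3 and NEO1 were called in all 13 alternatives, while PLXNB2, PLXND1 and NTN4 lost the call in 3, 2 and 5 of them.

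Directions turned in 6 members, none of them called. EPHB3 was at 0.0025 with library size alone and EPHA5 at -0.0088 with limma-voom. Leaving out 1 library gave -0.12 to 0.12 for EPHA5, -0.10 to 0.0295 for EPHB3, -0.0301 to 0.0643 for EPHB4, -0.23 to 0.0720 for SEMA6A, -0.0458 to 0.10 for PLXNA1 and -0.0200 to 0.15 for ROBO1. The cause was not tested. Library size alone moved the median log2 fold change of all genes to 0.036. With no low-count filter 1456 genes were higher and 2084 lower over the whole table, in place of 1298 and 1364.

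The labels do not say whether same-numbered libraries belong together. The deviations of same-numbered libraries from their group means correlated at -0.2, -0.068 and 0.0535. Those of libraries with unlike numbers correlated at -0.188 to 0.254. With 3 libraries centred per group these correlations depend on one another, so they cannot decide whether the libraries are paired. With a replicate block, 4 members were higher and 10 lower, and 7 partners higher and 13 lower; all 12 member calls were kept.

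The 15 members that were not tested had 0 to 7 counts per library, too few for the test.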
